A study of Mus musculus with 4 samples.

Results

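Interferon-stimulated genes, the genes that cells switch on when they sense interferon, were followed in hepatocytes of mice with diet-induced steatohepatitis given vehicle or tamoxifen. A list of 46 of them was matched by symbol to the gene identifiers of the expression table, and 46 of 46 were found among its 22298 genes. Hepatocytes were isolated from male wild-type C57BL/6 mice, bought at 8 weeks of age and fed a methionine- and choline-deficient (MCD) diet for 6 weeks, which brings on fat storage and inflammation in the liver. Both groups had this diet, and mice received 100 mg/kg tamoxifen in corn oil intraperitoneally, or vehicle, for 5 days. Messenger RNA was sequenced in 2 libraries per group. Whether each library came from its own mouse or from pooled mice is not stated, so the p-values speak only of the spread among these 4 libraries.

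Interferons bind receptors that act through JAK kinases, and a complex that holds Stat2 and Irf9 then enters the nucleus and binds the interferon-stimulated response element (ISRE), a repeat of GAAA blocks in the promoters of its targets. The targets sense foreign nucleic acids, block viral replication, load antigen onto MHC molecules and feed back on the signal. In the liver, hepatocytes, Kupffer cells (the resident macrophages) and endothelial cells all respond to interferon.

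The promoters of 6 members are printed, those with the largest called changes among the members with an ISRE-type match. All 6 hold such a match because it was required. The windows come from RefSeq (GRCm38.p6) and run from 250 bases before to 50 bases after an annotated start, read 5′ to 3′ on the strand of the gene. Capitals mark the letters GAAANNGAAA, searched on both strands, so that a match on the other strand reads TTTC, 2 free bases, TTTC.
Ifit3 (chr19:34583279-34583578, plus strand): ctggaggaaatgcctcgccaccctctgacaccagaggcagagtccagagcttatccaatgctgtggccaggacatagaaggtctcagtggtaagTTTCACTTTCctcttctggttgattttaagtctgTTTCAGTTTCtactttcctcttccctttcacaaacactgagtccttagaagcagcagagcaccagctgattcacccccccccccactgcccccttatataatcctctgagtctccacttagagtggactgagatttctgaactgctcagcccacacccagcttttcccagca
Trim30a (chr7:104465144-104465443, minus strand): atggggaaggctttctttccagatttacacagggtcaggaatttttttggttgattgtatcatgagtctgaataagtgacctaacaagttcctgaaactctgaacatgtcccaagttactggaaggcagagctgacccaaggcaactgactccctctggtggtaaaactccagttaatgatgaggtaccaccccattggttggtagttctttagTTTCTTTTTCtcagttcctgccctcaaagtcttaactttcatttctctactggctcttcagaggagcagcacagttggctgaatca
Oas1a (chr5:120907476-120907775, minus strand): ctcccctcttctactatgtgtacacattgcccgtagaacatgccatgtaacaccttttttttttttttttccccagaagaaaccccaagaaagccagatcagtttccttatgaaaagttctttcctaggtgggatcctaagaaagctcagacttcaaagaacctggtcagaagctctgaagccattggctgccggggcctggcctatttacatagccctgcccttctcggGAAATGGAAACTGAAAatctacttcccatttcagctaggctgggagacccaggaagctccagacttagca
Rsad2 (chr12:26456403-26456702, minus strand): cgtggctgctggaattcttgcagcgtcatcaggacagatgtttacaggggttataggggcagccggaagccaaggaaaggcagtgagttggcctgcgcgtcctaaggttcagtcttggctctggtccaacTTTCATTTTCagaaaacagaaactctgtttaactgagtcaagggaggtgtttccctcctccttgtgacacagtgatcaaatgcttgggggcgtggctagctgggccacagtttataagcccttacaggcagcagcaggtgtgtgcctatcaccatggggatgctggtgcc
Oas3 (chr5:120777610-120777909, minus strand): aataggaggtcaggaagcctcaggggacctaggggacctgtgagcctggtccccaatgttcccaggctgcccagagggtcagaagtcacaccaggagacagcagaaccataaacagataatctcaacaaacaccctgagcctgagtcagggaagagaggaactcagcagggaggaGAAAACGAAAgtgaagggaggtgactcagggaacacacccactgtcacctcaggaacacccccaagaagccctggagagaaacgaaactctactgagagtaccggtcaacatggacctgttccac
Gbp2 (chr3:142620413-142620712, plus strand): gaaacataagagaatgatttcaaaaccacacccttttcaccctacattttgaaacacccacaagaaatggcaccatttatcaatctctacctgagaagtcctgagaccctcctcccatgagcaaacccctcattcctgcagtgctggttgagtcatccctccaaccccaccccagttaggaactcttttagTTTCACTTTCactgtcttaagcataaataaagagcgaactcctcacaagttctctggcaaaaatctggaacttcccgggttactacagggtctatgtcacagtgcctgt
In Ifit3 the matches lay at -156 to -147 and -122 to -113 from the start, both on the other strand. In Oas1a a pair of overlapping matches, at -20 to -11 and -14 to -5, forms 1 run of capitals. The matches of Trim30a (-36 to -27), Rsad2 (-120 to -111), Oas3 (-75 to -66) and Gbp2 (-59 to -50) were single.

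A promoter window was at hand for 35 of the 46 members. Of these, 19 (54.3%) held the ISRE-type letters, against 3.94% of the 9224 genes tested that had a window and 3.99% of all 27025 genes with one. With a further C required (GAAANNGAAAC) the share was 45.7% of the members, 1.09% of the genes tested and 0.944% of all genes. The letters TTCNNNGAA, a palindrome that matches the GAS-type site of STAT dimers, were in 7 members (20%) and in 8.24% of the genes tested. A match is a description of the letters, not a site shown to be bound. Isg15 carried 3 overlapping ISRE-type matches between -78 and -57, and the matches of Ifit3b, at -188 to -179 and -154 to -145, had the same spacing as those of Ifit3.

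**Figure D1:**
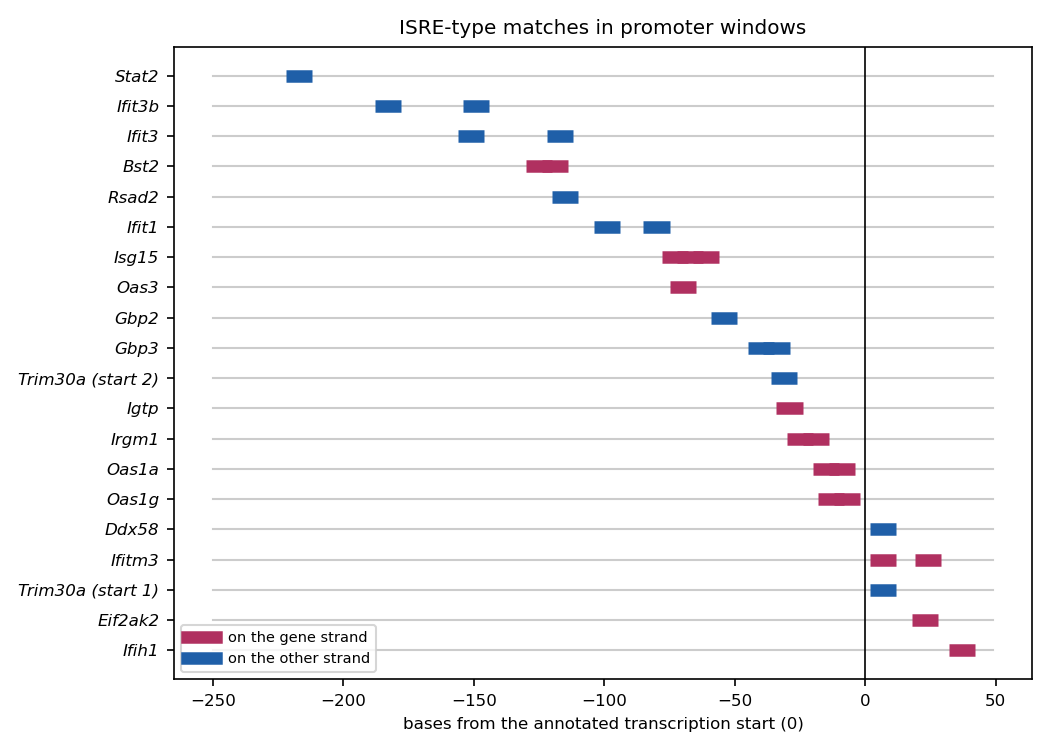
Positions of ISRE-type matches (x axis, bases from the annotated start at 0) in the promoter windows of the 19 members that hold one, 1 line per window and the block's color giving the strand. Trim30a has a match in both of its annotated starts, and the match of Stat2, at -222 to -213, lies farthest from the start.

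Expression was given as FPKM, fragments scaled by transcript length and by the mapped fragments of the library, and so is a share of each library. Depth, estimated from the spacing of the lowest values, was about 16540000 to 20760000 fragments, and the 100 most abundant genes took 46.1% to 53.8% of the summed FPKM in vehicle and 62.6% to 65.0% in tamoxifen. The 20 hepatocyte markers were all above 0 in every library and summed to between 52758 and 106957 FPKM, with albumin (Alb) between 26382 and 50399 FPKM, as the label of the cells says. RNA of other cells was present as well, as described below. The 11633 genes that reached 1 FPKM in 2 or more libraries were compared by limma on log2(FPKM + 1), and a fold change on this scale understates that of genes near or below 1 FPKM. All 46 members were at 1 FPKM or more in both vehicle libraries, and 10 of them were below 1 FPKM in both tamoxifen libraries.

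After tamoxifen the interferon-stimulated genes were lower as a group. At an adjusted p under 0.05 (limma, Benjamini-Hochberg over all genes tested), 39 of the 46 members were lower, 0 were higher and 7 did not pass, where 46.7% of all genes tested were lower and 4.31% were higher. The median log2 fold change was -2.03 over the members and -0.60 over all genes tested, and the fold changes of the members were negative in 46 of 46 and ran from -3.66 (Oasl2) to -0.09 (Iigp1). The 10 members below 1 FPKM in both tamoxifen libraries passed the filter through the vehicle group, where they were high, so they could hardly be other than lower. Among the other 36 members, 30 were lower, against 40.8% of the genes tested that reached 1 FPKM in at least 1 tamoxifen library. In 43 of 46 members both tamoxifen values lay below both vehicle values, which was so in 71.9% of all genes tested. Summed over the members, the level was 918 FPKM in vehicle 1, 2035 FPKM in vehicle 2, 665 FPKM in tamoxifen 1 and 527 FPKM in tamoxifen 2. In these bulk libraries, fewer cells of a type and less RNA per cell cannot be told apart.

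The vehicle libraries were far apart in these genes. Every one of the 46 members was higher in vehicle 2 than in vehicle 1, where 70.9% of all genes tested were, and 33 of 46 were higher by more than 1 on the log2(FPKM + 1) scale, where 3.81% of all genes tested were. The median gap was 1.47 over the members and 0.20 over all genes tested, and it ran from 0.22 (Iigp1) to 2.73 (Ifit3). In 29 of 46 members the vehicle gap was larger than the distance from vehicle 1 to the mean of the tamoxifen libraries, which was so in 16.6% of all genes tested. These gaps compare 1 library with 1 and have no test. The tamoxifen libraries differed less on this scale. Their median gap, tamoxifen 2 minus tamoxifen 1, was -0.30 over the members and -0.05 over all genes tested. In tamoxifen 2, 37 of 46 members were lower (57.5% of all genes tested). None of the members was apart by more than 1, where 244 of all 11633 genes tested were. The scale shrinks gaps between low values, and 10 members were below 1 FPKM in both tamoxifen libraries. In plain FPKM, tamoxifen 2 was 0.378 times tamoxifen 1 in Ifit1, 0.478 times in Igtp and Oasl1, and 2.63 times in Oas1a.

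**Figure D2:**
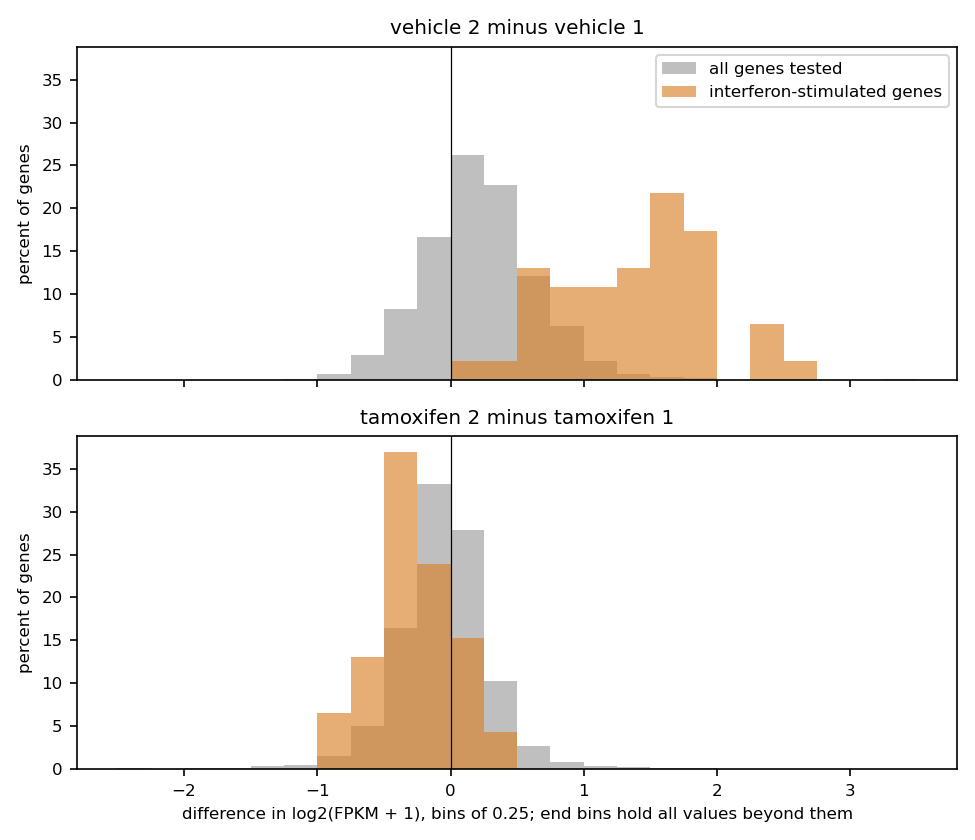
Percent of genes (y axis) by the difference in log2(FPKM + 1) between the libraries of a group (x axis, bins of 0.25), above for vehicle and below for tamoxifen, for the 46 members and all 11633 genes tested. The members lie to the right of 0 between the vehicle libraries, with a median of 1.47, and mostly just left of 0 between the tamoxifen libraries, with a median of -0.30.

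Without vehicle 2, the median log2 fold change of the members was -1.25 and 31 of 46 were lower, against 30.5% of all genes tested. After quantile normalization, which gives every library the same distribution of values, 14 of 46 were lower against 13.7% of all genes tested, with a median of -1.23. After rescaling by median ratios, 26 of 46 were lower against 19.4%, with a median of -1.33. These rescalings moved the median of all genes tested from -0.60 to 0.09 and 0.06. Without tamoxifen 2, 28 of 46 were lower against 22% of all genes tested, the calls of Irf9, Stat2, Herc6, Trim25, Ifih1, Zbp1, Eif2ak2, Ifit1, Bst2, Irgm1 and Ifi44 being lost, and without tamoxifen 1 those of Herc6, Ifih1 and Bst2 were lost. No member was higher at an adjusted p under 0.05 under any alternative run. Lower under every alternative they were run in were 14: Usp18, Oas1a, Oas3, Oasl1, Oasl2, Rsad2, Samd9l, Gbp2, Gbp3, Rtp4, Ifi27l2a, Trim30a, Lgals3bp and Sp100, of which Oas3 had too low a mean for the filter at 5 FPKM. Among these 14, Oas1a, Oas3 and Oasl2 passed the filter through vehicle alone, so their direction was fixed by it. The counts of lower members in this paragraph include the 10 members of that kind. Of the 39 called members, 22 moved by more than 1.5 times without vehicle 2. Of the same 39, 25 lost their call after quantile normalization, 13 after rescaling by median ratios and 22 with no filter on low values.

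**Figure D3:**
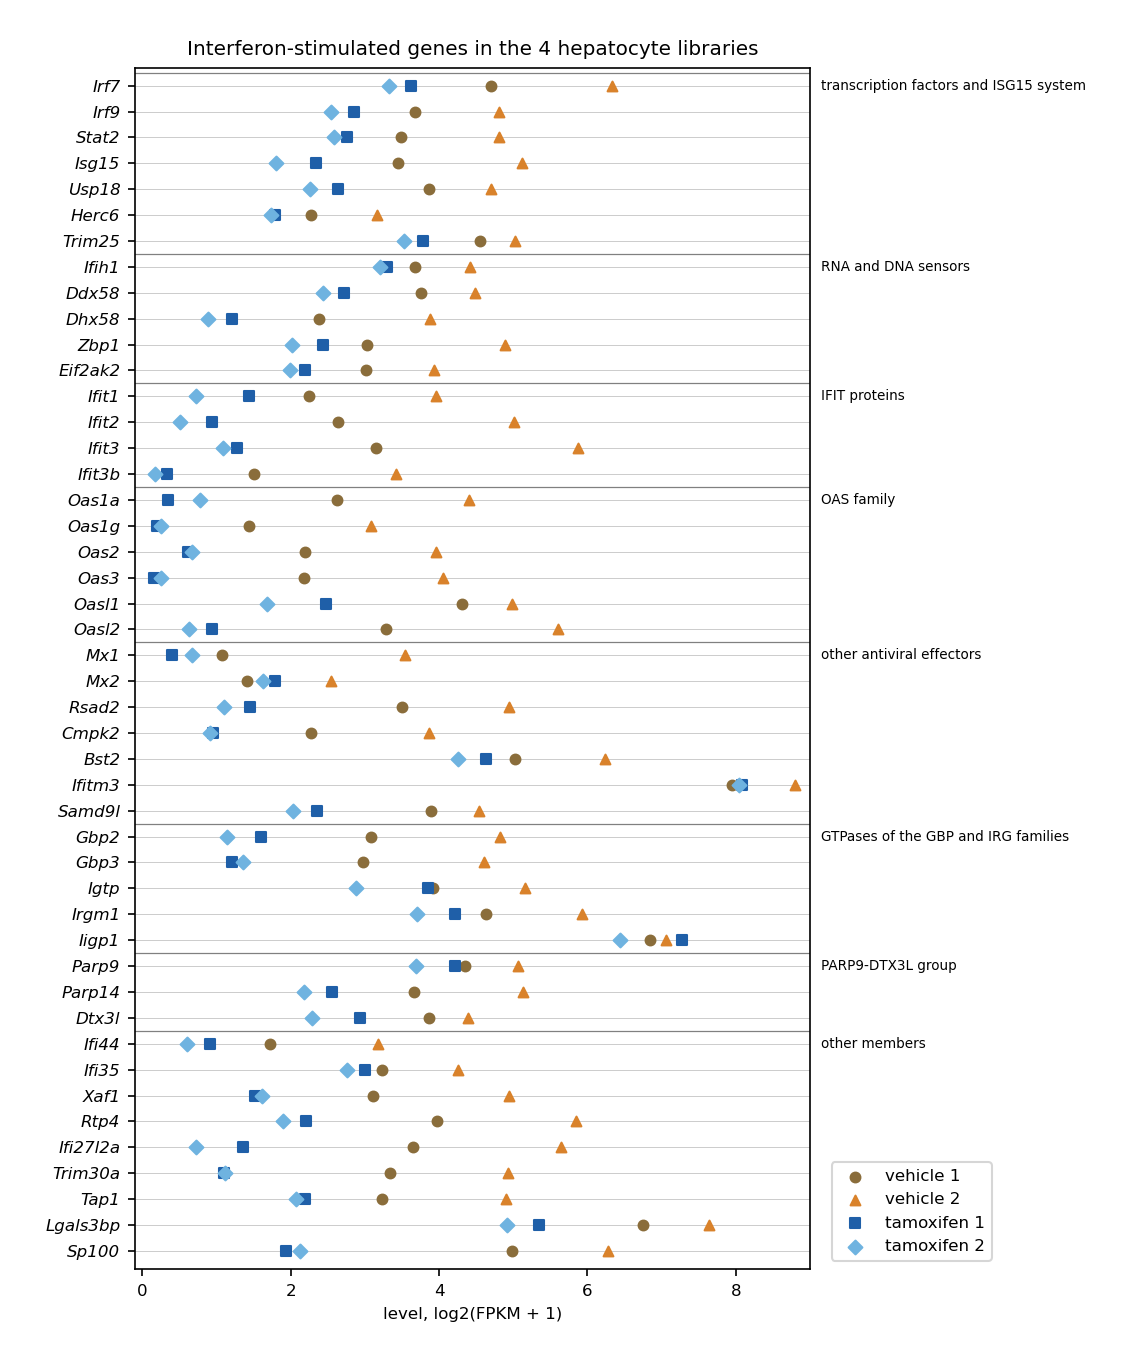
Level of each of the 46 members (x axis, log2(FPKM + 1)) in the 4 libraries, 1 row per gene, ordered by role. Vehicle 2 (triangles) is above vehicle 1 (circles) in all 46 rows, and both tamoxifen libraries (squares and diamonds) lie below both vehicle libraries in 43 rows, the exceptions being Mx2, Ifitm3 and Iigp1.

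The counts by role that follow stand against 46.7% of all genes tested lower, with a median of -0.60. The factors that carry or shape the interferon signal were lower after tamoxifen in 7 of 7 members, with a median log2 fold change of -1.54. Irf7, the factor that amplifies type I interferon production (chromosome 7, 141262706 to 141266481, minus strand, GRCm38), was at 24.96 FPKM in vehicle 1, 79.5 FPKM in vehicle 2, 11.3 FPKM in tamoxifen 1 and 9.03 FPKM in tamoxifen 2. Both tamoxifen values lay below vehicle 1, and the value of vehicle 2 stood 3.19 times above that of vehicle 1. Irf7 fell by 2.04 on the log2 scale (SE, the standard error, 0.47, limma adjusted p = 0.0102). Without vehicle 2 its log2 fold change was -1.23, and the call was lost by median ratios (-1.29, limma adjusted p = 0.0585), by quantiles (-1.53, limma adjusted p = 0.0693) and with no filter (limma adjusted p = 0.0631). Stat2 and Irf9, which act in the complex that binds the ISRE, showed the same order of libraries. Stat2 (chromosome 10, 128270559 to 128292849) was at 10.2 and 26.9 FPKM in vehicle and 5.77 and 5.00 FPKM in tamoxifen, and fell by 1.47 (SE 0.40, limma adjusted p = 0.0187). Without vehicle 2, its log2 fold change was -0.81 and the call was lost (limma adjusted p = 0.0528). Irf9 (chromosome 14, 55603571 to 55610030) was at 11.7 and 27.0 FPKM in vehicle and 6.22 and 4.83 FPKM in tamoxifen, and fell by 1.54 (limma adjusted p = 0.0114).

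The ISG15 system attaches a ubiquitin-like protein to other proteins. Isg15, that protein itself (chromosome 4, 156199424 to 156200818, minus strand), was at 9.93 FPKM in vehicle 1, 33.6 FPKM in vehicle 2, 4.05 FPKM in tamoxifen 1 and 2.47 FPKM in tamoxifen 2. The groups did not overlap, and the vehicle libraries differed more from each other than vehicle 1 did from tamoxifen 1. Isg15 fell by 2.22 on the log2 scale (SE 0.49, limma adjusted p = 0.00932). Usp18, the protease that removes Isg15 and restrains the type I interferon receptor, was at 13.5 and 24.99 FPKM in vehicle and 5.23 and 3.78 FPKM in tamoxifen. It fell by 1.83 (SE 0.31, limma adjusted p = 0.00347), and here the vehicle gap of 0.84 was small beside the fold change. Herc6, the main ligase of Isg15 in mice, fell by 0.95 (limma adjusted p = 0.0385), a call lost without vehicle 2, when its log2 fold change was -0.51, by median ratios (-0.33) and by quantiles (-0.098). Trim25, a ubiquitin ligase that acts on RIG-I, fell by 1.14, from 22.5 and 31.6 FPKM to 12.8 and 10.5 FPKM.

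The sensors of foreign RNA and DNA were lower in 5 of 5 members, with a median of -1.55. Ddx58 (RIG-I), which recognises RNA with a triphosphate end, was at 12.5 and 21.3 FPKM in vehicle and 5.55 and 4.40 FPKM in tamoxifen, and fell by 1.55 (SE 0.29, limma adjusted p = 0.00459). Dhx58 (LGP2), a related helicase that modulates RNA sensing, was at 4.19 and 13.7 FPKM in vehicle and 1.3 and 0.84 FPKM in tamoxifen, and fell by 2.09. Zbp1, a sensor of Z-form nucleic acids, was at 7.13 and 28.7 FPKM in vehicle and 4.39 and 3.03 FPKM in tamoxifen. Its fall of 1.74 was smaller than its vehicle gap of 1.87, and without vehicle 2 its call was lost at a log2 fold change of -0.80. Eif2ak2 (PKR), the kinase that halts translation on double-stranded RNA, fell by 1.38. Ifih1 (MDA5), the sensor of long double-stranded RNA, changed least of the sensors, from 11.8 and 20.3 FPKM in vehicle to 8.86 and 8.17 FPKM in tamoxifen. Its fall of 0.79 passed narrowly (limma adjusted p = 0.0448) and was -0.43 without vehicle 2, -0.060 by median ratios and -0.14 by quantiles, with no call.

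The IFIT genes, whose proteins bind viral RNA and block its translation, lie side by side on chromosome 19 between 34550694 and 34650009. All 4 were lower after tamoxifen, with a median of -2.66, and all 4 had a vehicle gap over 1, but Ifit2 and Ifit3b passed the filter through vehicle alone. Ifit3 was at 7.85 FPKM in vehicle 1, 57.8 FPKM in vehicle 2, 1.43 FPKM in tamoxifen 1 and 1.12 FPKM in tamoxifen 2. Vehicle 2 was 7.37 times vehicle 1, and vehicle 1 was still well above both tamoxifen libraries. Ifit3 fell by 3.33 on the log2 scale (SE 0.73, limma adjusted p = 0.00895), and by 1.96 without vehicle 2, and its call was lost by quantiles (-2.63, limma adjusted p = 0.0614). Ifit2 was at 5.22 and 31.2 FPKM in vehicle and 0.91 and 0.42 FPKM in tamoxifen, and fell by 3.10. Ifit1 was at 3.75 and 14.5 FPKM in vehicle and 1.72 and 0.65 FPKM in tamoxifen, and fell by 2.02, a call lost without vehicle 2 at -1.16. Ifit3b is a near copy of Ifit3. Of the runs of 50 bases in its transcripts 44.5% also occur in those of Ifit3, so fragments could be assigned to either gene, and its 0.26 and 0.13 FPKM in tamoxifen correspond to about 9 and 4 fragments on its transcript.

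The OAS family takes its name from enzymes that make the short oligoadenylates that switch on RNase L. All 6 listed genes of the family were lower after tamoxifen. But 5 of them, all but Oasl1, were under 1 FPKM in both tamoxifen libraries and passed the filter through vehicle alone. The direction of these 5 was fixed by the filter. Oasl2, an OAS-like synthetase of the mouse (chromosome 5, 114896936 to 114912234), was at 8.76 FPKM in vehicle 1, 47.5 FPKM in vehicle 2, 0.92 FPKM in tamoxifen 1 and 0.54 FPKM in tamoxifen 2. It had the largest fold change among the members, and the groups stood apart by more than the vehicle gap of 2.31. Oasl2 fell by 3.66 (SE 0.64, limma adjusted p = 0.00374), by 2.50 without vehicle 2 and by 2.91 after quantile normalization. Its neighbor Oasl1, which in mice restrains the translation of Irf7, was at 18.8 and 30.6 FPKM in vehicle and 4.58 and 2.19 FPKM in tamoxifen. With a vehicle gap of 0.67 it was the steadiest of the family in vehicle, and it fell by 2.57 (SE 0.34, limma adjusted p = 0.00145).

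The other OAS genes lie together on chromosome 5 between 120730333 and 120907521. Oas3 was at 3.52 and 15.6 FPKM in vehicle and 0.11 and 0.19 FPKM in tamoxifen, about 9 and 15 fragments on its longest annotated transcript. Oas1a was at 5.15 and 20.2 FPKM in vehicle and 0.27 and 0.71 FPKM in tamoxifen, and Oas2 was at 3.56 and 14.5 FPKM and then 0.53 and 0.59 FPKM. The values of Oas1a rest on about 9 and 22 fragments in tamoxifen and those of Oas2 on about 37 and 39. The genes fell by 2.91 (Oas3), 2.95 (Oas1a) and 2.43 (Oas2). Unlike most members, all 3 were somewhat higher in tamoxifen 2 than in tamoxifen 1. Oas1g, which fell by 2.04, shares 45.2% of its runs of 50 bases with Oas1a, and fragments could be assigned to either.

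Of 7 other antiviral effectors, 4 were lower and 3 did not pass, a share (57.1%) near the 46.7% of all genes tested, with a median of -1.77. Rsad2 (viperin), an enzyme that makes a chain-terminating nucleotide, and Cmpk2, a mitochondrial nucleotide kinase, are neighbors on chromosome 12. Rsad2 was at 10.3 FPKM in vehicle 1, 29.6 FPKM in vehicle 2, 1.74 FPKM in tamoxifen 1 and 1.15 FPKM in tamoxifen 2. Cmpk2 followed it, at 3.82 and 13.5 FPKM in vehicle and 0.94 and 0.88 FPKM in tamoxifen. Rsad2 fell by 2.94 (SE 0.43, limma adjusted p = 0.00206) and Cmpk2 by 2.13 (limma adjusted p = 0.00853). Cmpk2 was under 1 FPKM in both tamoxifen libraries and passed the filter through vehicle alone, so its direction was fixed by it. Samd9l, an antiviral restriction factor, fell by 2.02, from 13.8 and 22.3 FPKM to 4.11 and 3.08 FPKM. Bst2 (tetherin), which holds budding virus at the membrane, fell by 1.18 (limma adjusted p = 0.0340), and without vehicle 2 its call was lost at -0.57.

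Mx1, a GTPase gene, showed how far 1 library can set a value. It was at 1.11 FPKM in vehicle 1, 10.6 FPKM in vehicle 2, 0.32 FPKM in tamoxifen 1 and 0.59 FPKM in tamoxifen 2. Only vehicle 2 was high, at 9.53 times vehicle 1, and the fold change of -1.77 did not pass (SE 0.67, limma adjusted p = 0.0595). Its paralog Mx2, annotated as a polymorphic pseudogene, had groups that overlapped (1.66 and 4.81 FPKM in vehicle, 2.44 and 2.10 FPKM in tamoxifen). Ifitm3, which hinders the entry of enveloped viruses, had the highest level of the members in every library, at 247 and 444 FPKM in vehicle and 270 and 262 FPKM in tamoxifen. Both tamoxifen values lay between the vehicle values, and neither Ifitm3 (log2 fold change -0.31, limma adjusted p = 0.406) nor Mx2 (-0.27, limma adjusted p = 0.557) passed.

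The GTPases of the GBP and IRG families act on the vacuoles of intracellular microbes. Of the 5 members, 3 were lower, a share (60%) near the 46.7% of all genes tested. The guanylate-binding proteins Gbp2 and Gbp3 and the regulator Irgm1 were lower, while Igtp and Iigp1 did not pass. Gbp2 was at 7.5 and 27.2 FPKM in vehicle and 2.02 and 1.20 FPKM in tamoxifen, and fell by 2.59 (SE 0.51, limma adjusted p = 0.00576). Gbp3 was at 6.89 and 23.4 FPKM in vehicle and 1.32 and 1.55 FPKM in tamoxifen, and fell by 2.51. Irgm1 fell by 1.32 (limma adjusted p = 0.0296), a call lost without vehicle 2 at -0.67. Igtp was at 14.1 FPKM in vehicle 1, 34.8 FPKM in vehicle 2, 13.4 FPKM in tamoxifen 1 and 6.39 FPKM in tamoxifen 2, so that vehicle 1 and tamoxifen 1 were nearly level (log2 fold change -1.17, limma adjusted p = 0.0613). Iigp1 (chromosome 18, 60376027 to 60392634) was at 113 and 132 FPKM in vehicle and 154 and 85.4 FPKM in tamoxifen. It had the smallest vehicle gap of the members, one of the largest gaps between the tamoxifen libraries (-0.84), and a log2 fold change of -0.09 (SE 0.30, limma adjusted p = 0.805).

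Parp9 and Dtx3l, partners in ADP-ribosylation and ubiquitination, overlap on opposite strands of chromosome 16. The preparation of the libraries was not stated to keep the strand, so reads of the overlap cannot be told apart, though it takes 9.4% and 8.0% of their exonic bases. Dtx3l was at 13.5 and 19.9 FPKM in vehicle and 6.64 and 3.90 FPKM in tamoxifen and fell by 1.51, while Parp9 went from 19.5 and 32.5 FPKM to 17.6 and 11.9 FPKM and did not pass (log2 fold change -0.76, limma adjusted p = 0.0664). Without vehicle 2 the call of Dtx3l was lost at -1.25. Parp14, a mono-ADP-ribosyltransferase nearby, fell by 2.03, from 11.7 and 34.2 FPKM to 4.87 and 3.52 FPKM.

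Among the remaining 9 members, 8 were lower, with a median of -2.46. Sp100, a component of nuclear bodies (chromosome 1, 85649988 to 85709998), was at 30.6 FPKM in vehicle 1, 76.4 FPKM in vehicle 2, 2.83 FPKM in tamoxifen 1 and 3.36 FPKM in tamoxifen 2. Here the distance of vehicle 1 to the tamoxifen libraries was far larger than the vehicle gap of 1.29. Sp100 fell by 3.60 (SE 0.39, limma adjusted p = 0.000868), by 2.95 without vehicle 2 and by 2.98 after quantile normalization. Ifi27l2a, a small interferon-induced protein, was at 11.5 and 49.1 FPKM in vehicle and 1.57 and 0.65 FPKM in tamoxifen, and fell by 3.61 (SE 0.58, limma adjusted p = 0.00279). Its short transcript makes the tamoxifen values rest on about 13 and 5 fragments. Trim30a, a regulator of Toll-like receptor signaling in mice, was at 9.14 and 29.4 FPKM in vehicle and 1.14 and 1.16 FPKM in tamoxifen, and fell by 3.03 (SE 0.46, limma adjusted p = 0.00227).

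Rtp4, a chaperone of receptor transport, fell by 2.85, from 14.6 and 56.4 FPKM to 3.63 and 2.73 FPKM. Lgals3bp, a secreted glycoprotein and the second most abundant member in vehicle 2, was at 106 and 198 FPKM in vehicle and 39.9 and 29.3 FPKM in tamoxifen, and fell by 2.05 (SE 0.32, limma adjusted p = 0.00243). Tap1, which carries peptides into the endoplasmic reticulum for MHC class I, fell by 1.93, Xaf1, a pro-apoptotic protein, by 2.46, and Ifi44 by 1.69. Ifi44 was under 1 FPKM in both tamoxifen libraries and passed the filter through vehicle alone, so its direction was fixed by it. Ifi35 did not pass (8.35 and 18.0 FPKM in vehicle, 7.0 and 5.76 FPKM in tamoxifen, limma adjusted p = 0.0662), and 16.8% of its exonic bases lie under a gene on the other strand.

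**Figure D4:**
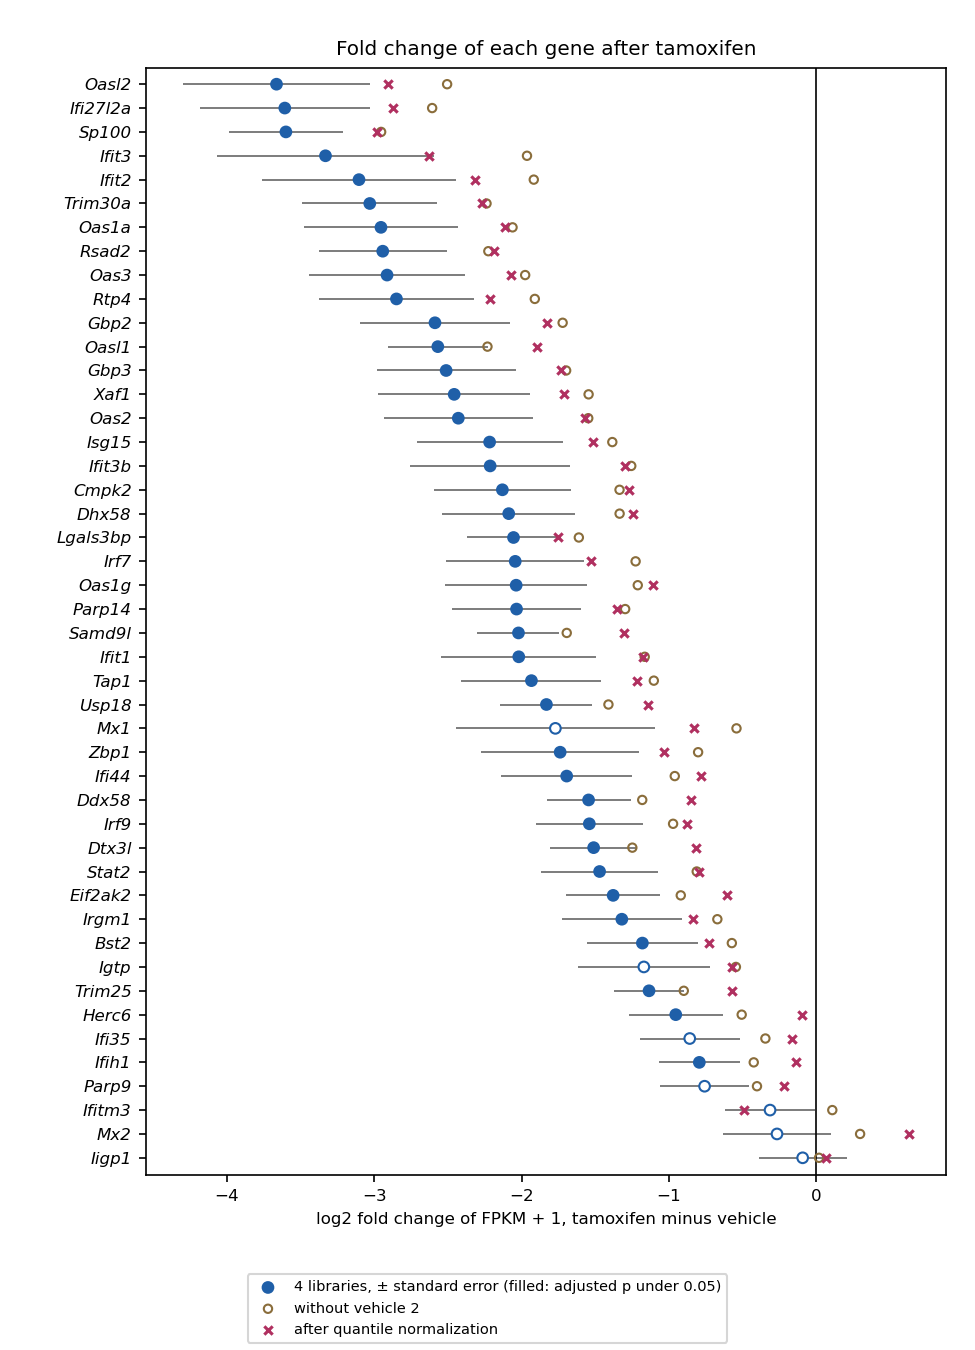
Log2 fold change of each of the 46 members (x axis, tamoxifen minus vehicle on log2(FPKM + 1)) with its standard error, filled where the adjusted p was under 0.05, and the values without vehicle 2 (open brown circles) and after quantile normalization (crosses). Oasl2 is at -3.66, Sp100 at -3.60 and Iigp1 at -0.09, and leaving out vehicle 2 brings all 46 closer to or past 0.

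The rest of the pathway was read from lists that hold no member. The interferons themselves were at or near 0. Of 16 ligand genes, 0 reached the filter, 13 were listed at 0 in every library, and the most abundant was Ifng, the type II interferon made by T and NK cells, at 0.44 and 1.81 FPKM in vehicle and 0.09 and 0.00 FPKM in tamoxifen. Ifnb1 and all listed interferon alpha genes but Ifna2 were listed at 0. Of 9 receptor and JAK kinase genes, 8 were tested and 7 were lower, with a median of -1.27, against 46.7% and -0.60 over all genes tested. By median ratios 4 were lower, against 19.4% of all genes tested, and by quantiles 3, against 13.7%. Jak1, the kinase shared by the receptors, fell by 1.44, from 62.7 and 82.3 FPKM to 24.4 and 27.4 FPKM, and Ifngr1, the ligand-binding chain for Ifng, fell by 1.89. Il10rb, a chain shared with the type III interferon receptor, fell by 2.78 (SE 0.30, limma adjusted p = 0.000872). Ifnar2, a chain of the type I receptor, did not pass (38.1 and 58.5 FPKM in vehicle, 34.9 and 39.6 FPKM in tamoxifen, limma adjusted p = 0.284).

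Of 11 other STAT, IRF and feedback genes tested, 7 were lower, 1 was higher and 3 did not pass, against 46.7% lower and 4.31% higher among all genes tested, and 4 were lower without vehicle 2. Irf5 and Irf8, factors best known from macrophages and dendritic cells, fell by 3.19 and 2.90. Stat3, the factor of interleukin-6 signaling, went the other way and rose by 0.78, from 28.6 and 35.3 FPKM to 54.3 and 56.4 FPKM (limma adjusted p = 0.0169). Without vehicle 1, or without tamoxifen 1, that call was lost. Irf1, an early interferon target, was at 26.6 and 60.1 FPKM in vehicle and 35.8 and 11.7 FPKM in tamoxifen, and Socs3, a feedback inhibitor, was at 63.2 and 74.4 FPKM and then 136 and 84.5 FPKM, and neither passed.

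Of 18 tested genes of nucleic acid sensing upstream of interferon, 12 were lower and 6 did not pass, with a median of -1.24, against 46.7% and -0.60 over all genes tested. Among the 12, 1 passed the filter through vehicle alone. After quantile normalization 6 of the 18 were lower, against 13.7%. Ifi204, a DNA sensor family gene of the mouse, fell by 3.32, Tlr8, an endosomal receptor, by 2.87, and Unc93b1, which brings such receptors to the endosome, by 2.45. Of 72 other interferon-inducible genes tested, 57 were lower, 1 was higher and 14 did not pass, with a median of -1.58 and a median vehicle gap of 1.03. Of the 57, 12 passed the filter through vehicle alone, and 26 of the 72 were lower after quantile normalization. Slfn5 fell by 3.53 and Ms4a4c by 3.48, while B2m, the light chain of MHC class I and the most abundant gene of that list, did not pass (1266 and 1673 FPKM in vehicle, 1026 and 915 FPKM in tamoxifen, limma adjusted p = 0.115). The gene that was higher was Phf11c, named after its values were seen, at 1.64 and 1.85 FPKM in vehicle and 6.24 and 43.4 FPKM in tamoxifen. Its log2 fold change of 2.71 was 1.40 without tamoxifen 2, and the call was lost without either vehicle library and with no filter. ISRE-type letters were in 44.3% of the 70 genes of this list with a promoter window.

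Markers of several other cell types were lower after tamoxifen. The counts that follow stand against 46.7% of all genes tested lower and 4.31% higher, with a median of -0.60. Of 20 Kupffer cell and macrophage markers, 19 were lower after tamoxifen with a median of -3.02, and their summed level was 1859 and 3721 FPKM in vehicle and 178 and 295 FPKM in tamoxifen. All 14 liver endothelial markers (median -1.88, 613 and 950 FPKM, then 170 and 211 FPKM) were lower. So were all 13 stellate cell and fibroblast markers (median -3.12, 411 and 733 FPKM, then 34.9 and 53.0 FPKM). But 8 of these stellate markers, 1 endothelial marker and 1 of the 19 lower macrophage markers passed the filter through vehicle alone. Of 9 tested markers of plasmacytoid dendritic cells, professional interferon producers, 8 were lower, 4 of them genes that passed the filter through vehicle alone. Siglech, which is among these 4, was at 5.77 and 13.5 FPKM in vehicle and 0.16 and 0.06 FPKM in tamoxifen. Its direction was fixed by the filter. The 6 T and NK cell markers tested all passed the filter through vehicle alone, so their direction was fixed by it, and the list was at a summed 16.6 and 62.9 FPKM in vehicle and 2.55 and 2.42 FPKM in tamoxifen. Of 4 neutrophil markers tested 2 were lower (50%) and of 5 cholangiocyte markers 3 (60%), shares near that of all genes tested. Among these 3 cholangiocyte markers, 1 passed the filter through vehicle alone. Of 17 pancreatic acinar markers none passed. Of 20 hepatocyte markers, 12 were higher and 8 did not pass, with a median of 1.00. The part of these cells in the levels of the interferon-stimulated genes was not tested.

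The gaps between the libraries of a group, each 1 library against 1, are given here for marker lists beside the members. Vehicle 2 was above vehicle 1 in 20 of 20 macrophage markers, by a median of 0.97, and in 46 of 46 members, by 1.47. Over all genes tested it was above in 70.9%, with a median of 0.20. The vehicle gap exceeded the distance from vehicle 1 to the tamoxifen mean in 0 of 20 macrophage markers and 29 of 46 members. It did so in 16.6% of all genes tested. Between the tamoxifen libraries the macrophage markers were higher in tamoxifen 2 in 19 of 20, by a median of 0.59, where 37 of 46 members were lower, with a median of -0.30. Of all genes tested, 57.5% were lower in tamoxifen 2, with a median of -0.05. The 4 neutrophil markers had a median vehicle gap of 1.43 and a tamoxifen gap of -0.24. These gaps were 1.06 and -0.01 in the 6 T and NK cell markers, and 0.79 and -0.04 in the 9 plasmacytoid dendritic cell markers. They were 1.40 and 0.44 in the 5 cholangiocyte markers, 0.93 and 0.12 in the 13 stellate markers, and 0.61 and 0.25 in the 14 endothelial markers. All 6 T and NK cell markers, 8 stellate markers and 4 plasmacytoid markers were under 1 FPKM in both tamoxifen libraries. So was 1 marker each of the macrophage, endothelial and cholangiocyte lists. Gaps between such low values are small on this scale. Markers of pancreatic acinar cells also set vehicle 2 apart, at a summed 10.5 FPKM in vehicle 1, 1566 FPKM in vehicle 2, 11.3 FPKM in tamoxifen 1 and 67.3 FPKM in tamoxifen 2. The part of any of these cell types in the gaps of the members was not tested.

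**Figure D5:**
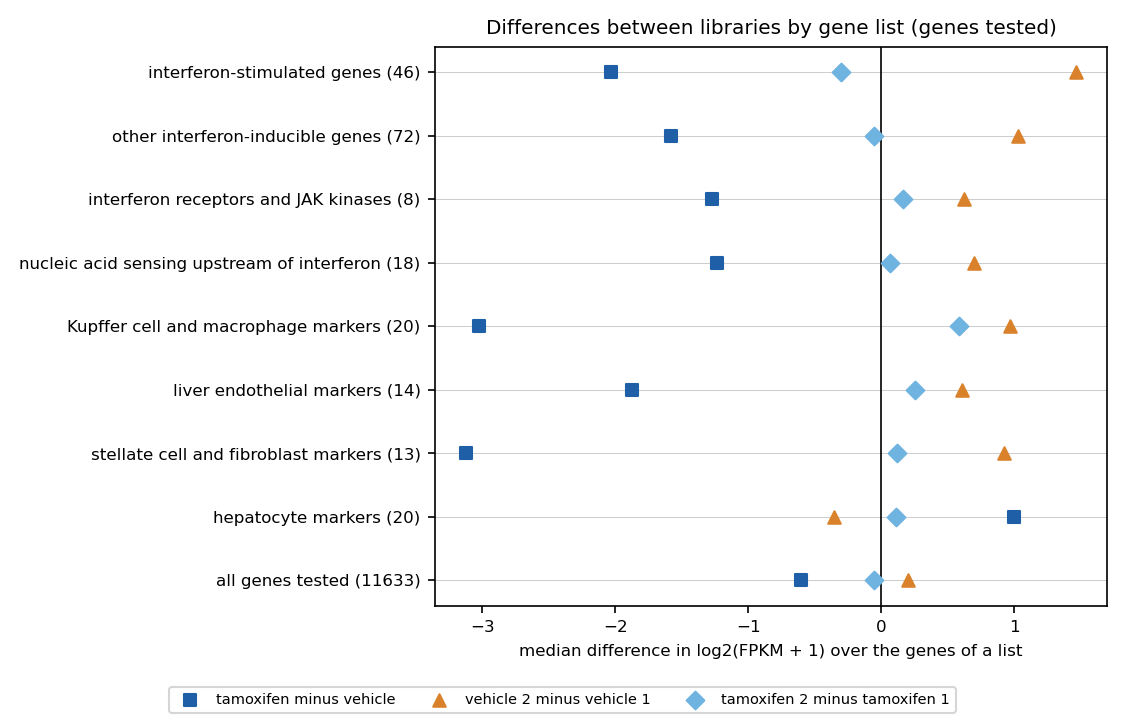
Median difference in log2(FPKM + 1) over the genes of each list (x axis) between tamoxifen and vehicle (squares), vehicle 2 and vehicle 1 (triangles), and tamoxifen 2 and tamoxifen 1 (diamonds), with the number of genes tested in parentheses. The interferon-stimulated genes have a vehicle gap of 1.47 (that of the acinar markers, which with several other lists are not drawn, was 5.59), and the macrophage markers have a larger fold change (-3.02) and a tamoxifen gap of the other sign (0.59).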

How the data were processed

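FPKM tables, 1 per library, were deposited by the authors, rounded to 2 decimals. Per the labels, the tools were StringTie 1.3.1, RSEM, HISAT2, Bowtie2 and fastp 0.18.0, with roles, build and annotation not given in the sources used here. Symbols were matched to 22255 of 22298 identifiers, and coordinates are those of GENCODE M21 (GRCm38). Groups were compared on log2(FPKM + 1) by limma 3.58.1 in R 4.3.3 (lmFit, then eBayes with trend, two-sided). The 11633 genes that reached 1 FPKM in 2 or more libraries were tested and adjusted together by Benjamini-Hochberg. The method was tested on simulated data with independent noise and equal numbers of raised and lowered genes. That setting differs from these libraries, in which most called genes were lower. Members were counted from this fit, with no test over the list. Any member could be named. From related lists the 3 with the highest mean and the 2 with the largest called change were eligible, others being marked in the text. Some genes of these lists are not reported here. Members and lists were chosen with earlier results of these data known. Fragments behind a value were estimated from the depth and the longest transcript. Quantile normalization, rescaling by median ratios, a pseudocount of 0.1, no filter, a mean of at least 5 FPKM, the replicate number as a block and leaving out each library were tried as alternatives. Plots were made in matplotlib 3.10.9 (Python 3.11.15).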

Additional observations from a re-analysis of the deposited data

How the results depend on the processing

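Against 39 of 46 members lower, with a median log2 fold change of -2.03, quantile normalization gave 14 and -1.23, rescaling by median ratios 26 and -1.33, and no filter on low values 17 and -2.03 (27.4% of all genes then tested were lower). A pseudocount of 0.1 gave 41, and with a mean of at least 5 FPKM 32 of 37 were lower. Leaving out 1 library gave 28 (without tamoxifen 2) to 45 (without vehicle 1) lower members and a median of -2.80 (without vehicle 1) to -1.25 (without vehicle 2). The lone library of a group was then assumed to vary like the others. With the replicate block 43 members were lower. The replicate numbers carry no pairing in the labels. Across the genes tested, the vehicle gap and the tamoxifen gap (library 2 minus library 1) correlated at 0.283, each gap coming from only 1 pair of libraries. Single members that turned positive were Mx2 (0.31 by median ratios, 0.63 by quantiles, -0.83 to 0.30 with 1 library left out), Ifitm3 (0.48 by median ratios, -0.74 to 0.11 with 1 left out) and Iigp1 (0.70 by median ratios, 0.062 by quantiles, -0.51 to 0.33 with 1 left out). Each of the 3 was positive without vehicle 2, Iigp1 also without tamoxifen 2, and none was called at a positive value.

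Over all genes tested, 5432 lower and 501 higher became 2259 and 1929 by median ratios, 1595 and 1563 by quantiles, 3182 lower with a mean of at least 5 FPKM (fewer genes tested), and 2555 to 5531 lower and 263 to 500 higher with 1 library left out. Lower receptor and JAK genes, 7, became 4 by median ratios and 3 by quantiles. Lower STAT and IRF genes, 7, became 4 by median ratios, 4 by quantiles and 4 to 7 with 1 library left out (4 without vehicle 2 or tamoxifen 2), and the 1 higher became 2 by median ratios, by quantiles and with the replicate block, and 0 to 1 with 1 library left out. Lower sensing genes, 12, became 6 by quantiles. Other inducible genes, 57 lower and 1 higher, became 37 and 2 by median ratios, 26 lower by quantiles, 0 higher with no filter, and 0 to 2 higher with 1 library left out. The cause was not tested. The median vehicle gap of the members stayed between 1.23 and 1.60 where recomputed, and levels under 1 FPKM rest on few fragments.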
